A study of Mus musculus with 67 samples.

Results

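The B cell receptor signaling core comprises 9 genes, Cd79a, Cd79b, Lyn, Blk, Syk, Blnk, Btk, Plcg2 and Pik3cd, taken as a list of the receptor's signal chains and the enzymes and adaptor next to it, out of 35612 genes counted. The members, like the lists of other pathway genes below, were chosen with earlier results of these data known. Their counts beside the shares of all genes are therefore descriptions. The receptor is a surface immunoglobulin held by the Ig-alpha and Ig-beta chains, whose tails carry the tyrosine motifs that start the signal. Src-family kinases phosphorylate these motifs, Syk docks on them, and Syk then phosphorylates the adaptor BLNK, which brings BTK to phospholipase C gamma 2 so that calcium, diacylglycerol and NF-kB signals follow. A phosphoinositide 3-kinase with the catalytic subunit p110 delta supplies the membrane lipid that recruits BTK.

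RNA was measured in B cells and CD4+ T cells of C57BL/6 mice, purified from spleen and lymph nodes, that were either immunized to induce experimental autoimmune encephalomyelitis (EAE), a model of multiple sclerosis, or left naive. The 10 B cell groups are the 5 arms of EAE cells and the same 5 arms of naive cells, with 3 libraries in each: anti-Btla beads, anti-Btla beads with IFNb, control Ig beads with IFNb, control Ig beads, and unstimulated cells. All bead arms also received anti-IgM/G, which ligates the B cell receptor, and cells were kept with the beads for 18 h. The 10 T cell groups had the same arms with anti-CD3 in place of anti-IgM/G and serve as the contrast. Anti-Btla binds Btla, an inhibitory receptor of lymphocytes, and control Ig is an antibody without that target. The labels give no age or genetic change and do not say whether the 3 libraries of a group came from separate mice, so the p-values below cover only the scatter among libraries, which may be technical.

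Depth was 6681486 to 61964221 counts in the B cell libraries and 7297879 to 34019896 counts in the T cell libraries, and EAE B cells with anti-Btla were the shallowest B cell group at 6681486 to 29468440 counts. The 10 B cell markers summed to 3838 to 6669 CPM (counts scaled to a library total of 1000000) in B cell libraries and 80.9 to 251.9 CPM in T cell libraries. The 12 T cell markers summed to 26.8 to 48.7 CPM in B cell libraries and 3725 to 4806 CPM in T cell libraries. Myeloid markers, 11 genes, summed to 106 to 432 CPM in EAE B cells and to 100.4 to 222.5 CPM in naive B cells, with the library numbered 1 highest in each of the 10 groups. The naive T cell libraries also held 501 to 1096 CPM of the CD8 genes Cd8a and Cd8b1, against 13.2 to 26.2 CPM in those of EAE T cells, although both carry the label CD4+.

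The promoter sequences of 3 members are given here and referred to below. RefSeq start sites on GRCm38.p6 were matched for 6 of the 9 members (9 windows of 250 bases before to 50 after the start), and none was matched for Cd79b, Lyn and Blk. Cd79a and Blnk are shown because they hold the sites best known from B cell genes, and both windows of Syk because its transcripts begin in or near either. Of the Syk transcripts named below only Syk-201 begins inside a window, and those of Blnk begin outside the Blnk window. Capitals mark matches, on either strand, to the octamer ATTTGCAT, the Ets (PU.1 type) site AGGAAGTG, the E-box CACGTG, the GC box GGGCGG and the CCAAT box CCAAT. The motifs do not overlap each other in the windows shown.
Cd79a, chr7:24897247-24897546, plus strand: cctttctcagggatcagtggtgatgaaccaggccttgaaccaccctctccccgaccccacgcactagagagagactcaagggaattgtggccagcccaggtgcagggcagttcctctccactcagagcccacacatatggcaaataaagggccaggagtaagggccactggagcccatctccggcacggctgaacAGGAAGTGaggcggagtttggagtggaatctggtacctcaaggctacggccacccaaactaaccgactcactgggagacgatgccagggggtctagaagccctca
Blnk, chr19:40994172-40994471, minus strand: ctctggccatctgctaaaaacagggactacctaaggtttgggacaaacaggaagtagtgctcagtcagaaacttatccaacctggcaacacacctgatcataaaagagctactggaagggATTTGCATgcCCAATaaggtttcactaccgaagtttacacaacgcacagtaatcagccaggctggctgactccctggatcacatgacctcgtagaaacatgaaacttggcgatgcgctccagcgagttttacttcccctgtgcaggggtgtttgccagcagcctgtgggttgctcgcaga
Syk, upstream start, chr13:52583187-52583486, plus strand: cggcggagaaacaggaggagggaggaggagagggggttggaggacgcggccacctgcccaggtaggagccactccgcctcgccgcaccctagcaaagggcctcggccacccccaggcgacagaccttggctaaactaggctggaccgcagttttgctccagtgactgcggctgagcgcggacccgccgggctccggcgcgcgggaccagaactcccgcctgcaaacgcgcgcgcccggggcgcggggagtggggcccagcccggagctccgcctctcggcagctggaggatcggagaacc
Syk, downstream start, chr13:52596632-52596931, plus strand: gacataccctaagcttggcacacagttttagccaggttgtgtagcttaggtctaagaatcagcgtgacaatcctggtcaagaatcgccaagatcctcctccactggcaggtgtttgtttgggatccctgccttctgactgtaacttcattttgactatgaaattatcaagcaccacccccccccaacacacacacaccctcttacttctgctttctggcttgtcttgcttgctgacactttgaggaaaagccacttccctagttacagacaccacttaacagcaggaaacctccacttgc

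The Cd79a window held 1 Ets match, found in 4.07% of all 32851 promoter windows of the same length, and the Blnk window held 1 octamer, found in 1.74%, and 1 CCAAT box, found in 37.4%. Of the other windows, that of Plcg2 held 1 E-box (7.15% of all windows) and 2 GC boxes (35.7%), the 3 of Pik3cd held GC boxes or CCAAT boxes only, and that of Btk and both of Syk held none of the 5 motifs. The upstream start of Syk lies in sequence of 72% GC and the downstream start in sequence of 48% GC. A match describes the letters of these windows and was not tested for binding.

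The members lie on different chromosomes, apart from Lyn and Pik3cd (GRCm38). The chain genes are Cd79a at chr7:24897381-24902197 and Cd79b at chr11:106311341-106314762. The kinases are Lyn at chr4:3678115-3813122, Blk at chr14:63372836-63417037, Syk at chr13:52583173-52648792 and Btk at chrX:134542336-134583570. Blnk lies at chr19:40928927-40994535, Plcg2 at chr8:117498291-117635142 and Pik3cd at chr4:149649168-149702571, and all 9 are protein coding.

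The first question was how strongly each member was transcribed in resting B cells, compared per transcript length in TPM (transcript abundance per length, scaled to the same total in each library). Cd79b, the Ig-beta chain, stood highest with 840, 805 and 760 TPM in EAE cells and 851, 1003 and 842 TPM in naive cells. Cd79a, the Ig-alpha chain, followed with 633, 583 and 540 TPM in EAE cells and 548, 656 and 535 TPM in naive cells. The chains did not overlap in either state, and together they lay well above the 7 signaling genes.

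Among the signaling genes, Lyn, the Src-family kinase that also phosphorylates inhibitory receptors, had 173 to 184 TPM in EAE cells and 181 to 194 TPM in naive cells. The adaptor Blnk had 196 to 209.6 TPM in EAE cells and 179.7 to 186 TPM in naive cells, so that it ranked above Lyn in EAE cells while the pair overlapped in naive cells. Syk had 122 to 142 TPM in EAE cells and 158 to 172 TPM in naive cells, and the pair Syk and Btk overlapped in both states. Btk, the Tec-family kinase mutated in X-linked immunodeficiency of mice, had 141 to 151 TPM in EAE cells and 145 to 158 TPM in naive cells. Pik3cd, which encodes p110 delta (61.0 to 76.0 TPM in EAE and 72.4 to 84.9 TPM in naive cells), and the phospholipase gene Plcg2 (50.3 to 64.2 and 58.9 to 60.2 TPM) came next, overlapping in EAE cells only. Blk, a Src-family kinase largely restricted to the B lineage, was lowest at 31.6 to 35.8 TPM in EAE cells and 35.8 to 39.7 TPM in naive cells and overlapped with none of the others.

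**Figure D1:**
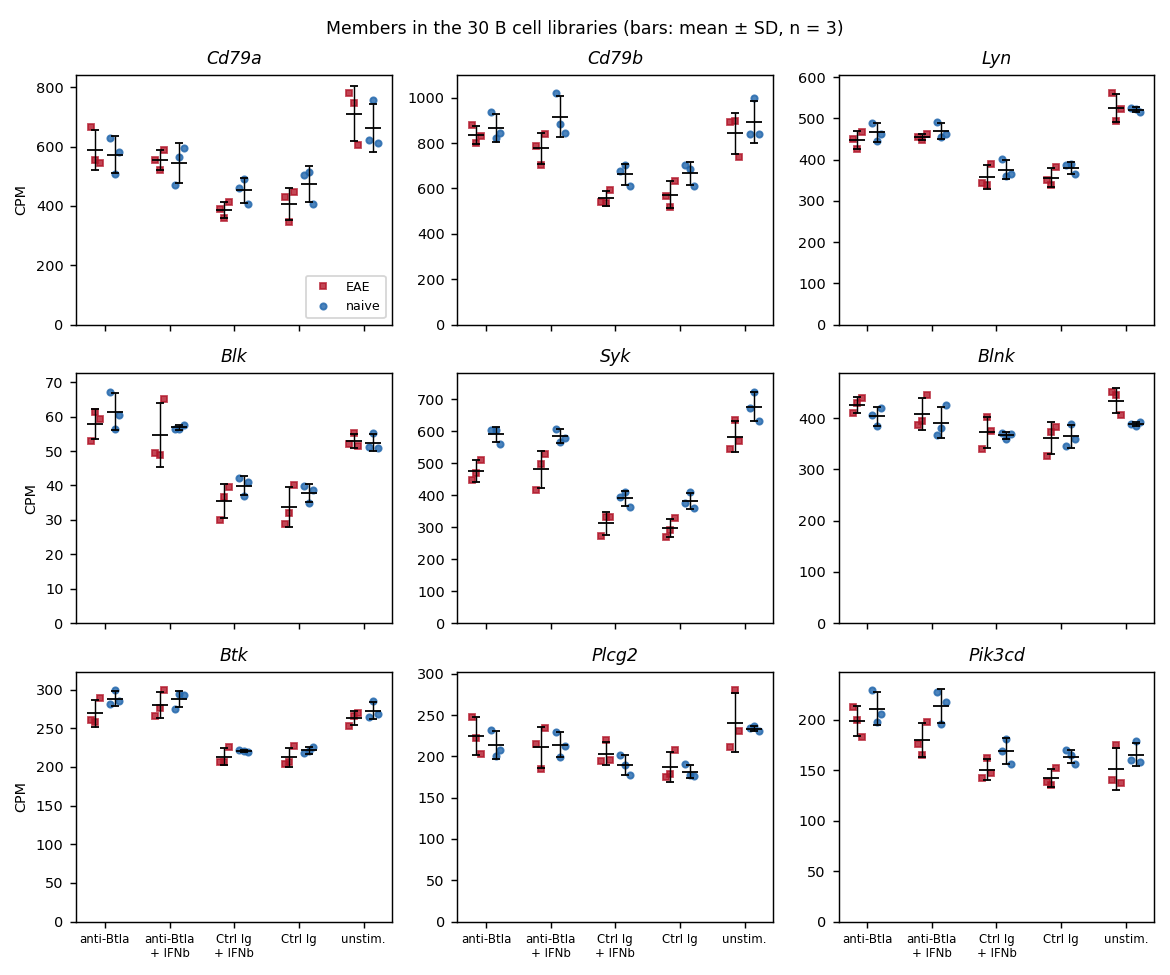
CPM of the 9 members (vertical axes, from 0) in the 30 B cell libraries by stimulation arm (horizontal axes; red squares, EAE; blue circles, naive; bars, mean ± SD of 3 libraries). For Syk the control Ig arms lie at 270 to 411 CPM, below the anti-Btla arms (417 to 609 CPM) and unstimulated cells (545 to 725 CPM), while Blnk and Plcg2 move little.

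Across the 10 B cell groups the members differed in how far they moved. Syk had the widest range, its highest group mean being 2.28 times its lowest (naive unstimulated cells against EAE cells with control Ig), followed by Cd79a (1.84) and Blk (1.83). Blnk had the narrowest range (1.20), then Plcg2 (1.33) and Btk (1.36). The replicate spread was smaller than these ranges, with a median coefficient of variation within groups of 3.80% for Btk to 11.9% for Cd79a. EAE cells with control Ig, or with control Ig and IFNb, gave the lowest mean of 8 members, and the exception was Plcg2, lowest in naive cells with control Ig. The 9 members together held 2420 to 2799 CPM in EAE cells with control Ig beads, against 3533 to 3998 CPM in unstimulated EAE cells, and 2697 to 2982 CPM against 3699 to 4145 CPM in the same arms of naive cells.

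Cells kept with control Ig beads were then compared with unstimulated cells, which is called activation below. The labels give 18 h with the beads but no culture time for unstimulated cells, so receptor ligation, the beads and time in culture cannot be told apart in this comparison, in B or in T cells. In EAE B cells 6 of 9 members fell and 0 rose (edgeR adjusted p below 0.05, as for all calls), where 18.8% of 17007 genes tested fell and 3576 genes rose. Among naive B cells 7 of 9 fell and 0 rose, where 17.5% of 16635 genes fell and 22.7% rose. The median log2 change of the members was -0.43 in EAE cells and -0.31 in naive cells, against -0.053 and -0.02 over all genes tested. In these bulk samples fewer cells of a type and less RNA of a gene per cell cannot be told apart. The 10 B cell markers moved along, summing to 3838 to 4238 CPM with control Ig and 6331 to 6669 CPM without stimulation in EAE cells, and to 4153 to 4420 CPM against 6408 to 6595 CPM in naive cells. The myeloid markers summed to 171 to 432 CPM with control Ig and 106 to 222 CPM unstimulated in EAE cells, which overlapped, and to 157 to 217 CPM against 100.4 to 149 CPM in naive cells, which did not. The part of either list in the result was not tested.

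Syk, the kinase that turns receptor ligation into signal, fell most. It had 270, 293 and 328 CPM with control Ig beads in EAE cells, against 545, 637 and 570 CPM in unstimulated EAE cells. The groups were far apart, and the log2 change was -0.85 ± 0.06 (SE, adjusted p = 1.86e-07). In naive cells it had 377, 409 and 361 CPM with control Ig, against 674, 725 and 633 CPM without stimulation, again without overlap, and fell by 0.72 ± 0.05 on the log2 scale (adjusted p = 2.57e-08).

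The Ig-alpha and Ig-beta chains fell in both states. Cd79a had 429, 345 and 446 CPM with control Ig and 781, 749 and 605 CPM unstimulated in EAE cells (log2 change -0.68 ± 0.10, adjusted p = 7.52e-05). In naive cells it had 503, 513 and 405 CPM with control Ig and 622, 758 and 611 CPM unstimulated (-0.38 ± 0.11, adjusted p = 0.0122). The groups did not overlap, but the naive call was lost without the control Ig library numbered 3 (adjusted p = 0.0821) or the unstimulated library numbered 2 (adjusted p = 0.0589). Cd79b fell by 0.43 ± 0.08 on the log2 scale in EAE cells (adjusted p = 0.000751) and by 0.31 ± 0.07 in naive cells (adjusted p = 0.00276). Of the heavy chains of naive cells, Ighd, the IgD chain, fell in EAE cells (-0.54 ± 0.06, adjusted p = 7.26e-06) and in naive cells (-0.22 ± 0.04, adjusted p = 0.000692), while Ighm, the IgM chain, was at 3749 to 4507 CPM against 4467 to 5303 CPM in EAE cells and at 4330 to 5260 CPM against 5080 to 5962 CPM in naive cells and did not pass.

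Among the Src-family kinases, Lyn had 350, 339 and 381 CPM with control Ig and 562, 493 and 523 CPM unstimulated in EAE cells (-0.43 ± 0.06, adjusted p = 4.58e-05), and fell by 0.35 ± 0.04 on the log2 scale in naive cells (adjusted p = 1.01e-05). Blk had 28.9, 31.9 and 40.2 CPM with control Ig and 52.1, 55.3 and 51.6 CPM unstimulated in EAE cells (-0.53 ± 0.09, adjusted p = 0.000314), and fell by 0.37 ± 0.07 in naive cells (adjusted p = 0.00055). Neither kinase overlapped between the arms in either state. Lyn shares exon sequence with Gm26857 on the opposite strand, and the strand setting of the counting is not given in the sources used here.

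Downstream of Syk the changes were small. Btk had 203.3, 207 and 227 CPM with control Ig and 253, 266 and 270 CPM unstimulated in EAE cells (-0.18 ± 0.05, adjusted p = 0.00918), and fell by 0.19 ± 0.04 in naive cells (adjusted p = 0.00269). The EAE call of Btk was lost in 6 alternatives, among them the fits without any of the control Ig libraries (adjusted p = 0.0578 to 0.0603) and with transcript lengths as an offset (-0.06, adjusted p = 0.444), and the naive call was lost with that offset (adjusted p = 0.076). Plcg2 fell in naive cells only by the test (-0.26 ± 0.05, adjusted p = 0.00114), and its value in EAE cells was -0.23 ± 0.11 (adjusted p = 0.117). Blnk had log2 changes of -0.14 ± 0.07 in EAE cells (95% interval -0.26 to -0.01, adjusted p = 0.115) and 0.01 ± 0.05 in naive cells (-0.08 to 0.11, adjusted p = 0.849), and Pik3cd had 0.05 ± 0.09 (-0.13 to 0.23, adjusted p = 0.693) and 0.09 ± 0.07 (-0.06 to 0.24, adjusted p = 0.368). Scaled by library size alone, which lowered the median of all genes by a further 0.13 in EAE and 0.11 in naive cells, Pik3cd and naive Blnk had values below 0 and did not pass, while EAE Blnk and Plcg2 passed as lower.

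**Figure D2:**
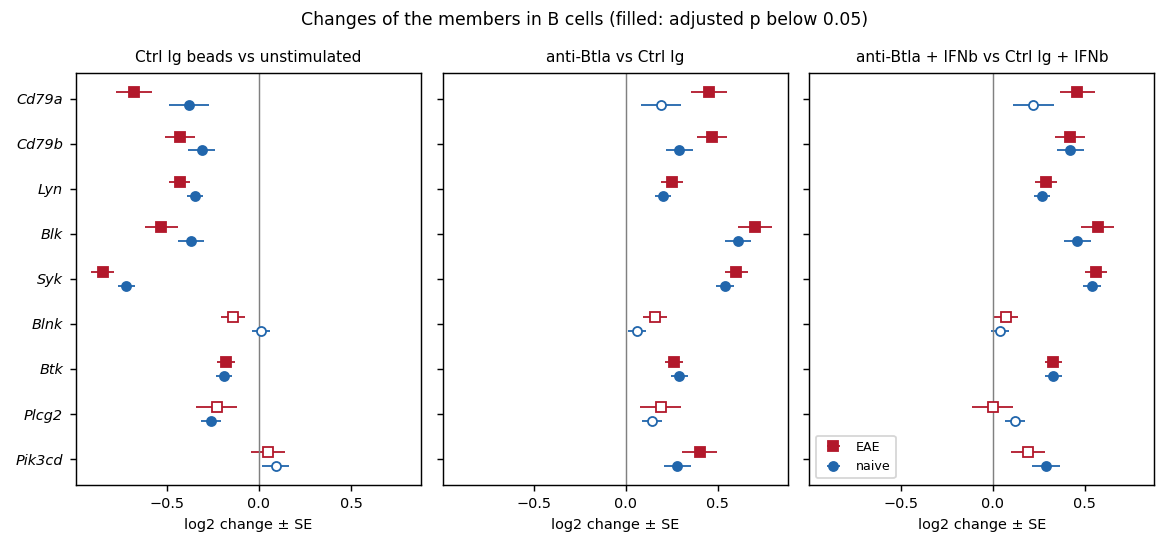
Log2 changes ± SE of the 9 members (rows) in B cells for control Ig beads against unstimulated cells, anti-Btla against control Ig, and anti-Btla with IFNb against control Ig with IFNb (red squares, EAE; blue circles, naive; filled, adjusted p below 0.05). Called values lie left of 0 in the first panel and right of 0 in the others, with Syk at -0.85 and -0.72 in the first and at 0.54 to 0.60 in the others.

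The second question was what anti-Btla on the bead did to these transcripts. In EAE B cells 7 of 9 members rose and 0 fell relative to control Ig, where 13.6% of all genes tested rose and 16.5% fell. Of the same 9 in naive cells, 6 rose and 0 fell, where 13.1% rose and 19.7% fell. The median log2 change of the members was 0.40 in EAE cells and 0.28 in naive cells, against 0.037 and 0.011 over all genes. This comparison shares the control Ig libraries with that of activation, so opposite directions of the pair are not separate evidence. The arms with IFNb share no library with either. They were, however, fitted together with them and carry the same replicate numbers, and the labels do not say what a number marks. They are therefore not fully separate evidence either. With IFNb present, 6 of 9 members rose and 0 fell in EAE cells, where 13.6% of all genes rose and 17.4% fell, and 6 of 9 rose and 0 fell in naive cells, where 11.9% rose and 17.5% fell. The B cell markers summed to 5130 to 5451 CPM with anti-Btla and 3838 to 4238 CPM with control Ig in EAE cells, and to 4943 to 5524 CPM against 4153 to 4420 CPM in naive cells. The myeloid markers summed to 139.8 to 409.5 CPM with anti-Btla and 171 to 432 CPM with control Ig in EAE cells, and to 123 to 173 CPM against 157 to 217 CPM in naive cells, overlapping in both. The part of either list in the result was not tested.

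Blk rose most in both states without IFNb. It had 52.9, 61.4 and 59.3 CPM with anti-Btla in EAE cells, against 28.9, 31.9 and 40.2 CPM with control Ig, a log2 change of 0.70 ± 0.09 (adjusted p = 7.19e-05). In naive cells it had 67.3, 56.5 and 60.6 CPM with anti-Btla and 39.9, 34.8 and 38.7 CPM with control Ig (0.61 ± 0.07, adjusted p = 7.83e-06). No library overlapped, and with anti-Btla 2 of 3 EAE libraries and all 3 naive libraries lay above every unstimulated library of their state. With IFNb the changes of Blk were 0.57 ± 0.09 in EAE cells (adjusted p = 0.000313) and 0.46 ± 0.07 in naive cells (adjusted p = 0.000144).

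Syk had 446, 470 and 512 CPM with anti-Btla and 270, 293 and 328 CPM with control Ig in EAE cells (0.60 ± 0.06, adjusted p = 8.20e-06). In naive cells it had 604, 605 and 562 CPM with anti-Btla and 377, 409 and 361 CPM with control Ig (0.54 ± 0.05, adjusted p = 8.04e-07). The groups did not overlap, and every anti-Btla library stayed below every unstimulated library of its state. With IFNb it rose by 0.56 ± 0.06 in EAE cells (adjusted p = 1.17e-05) and by 0.54 ± 0.05 in naive cells (adjusted p = 9.23e-07).

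The receptor chains were less even. Cd79b had 881, 799 and 830 CPM with anti-Btla and 569, 517 and 633 CPM with control Ig in EAE cells (0.47 ± 0.08, adjusted p = 0.000639), and rose by 0.29 ± 0.07 in naive cells (adjusted p = 0.00573). Cd79a had 667, 555 and 543 CPM with anti-Btla and 429, 345 and 446 CPM with control Ig in EAE cells (0.45 ± 0.10, adjusted p = 0.00284). In naive cells Cd79a had 628, 508 and 583 CPM with anti-Btla and 503, 513 and 405 CPM with control Ig, which overlapped, and did not pass (0.19 ± 0.11, 95% interval -0.02 to 0.41, adjusted p = 0.201). Without the anti-Btla library numbered 2 the naive value was 0.33 and passed (adjusted p = 0.0224). With IFNb, Cd79a rose by 0.46 ± 0.10 in EAE cells (adjusted p = 0.00243) and had 0.22 ± 0.11 in naive cells (adjusted p = 0.162), and Cd79b rose by 0.42 in both states.

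The kinases Lyn and Btk also rose. Lyn had 451, 425 and 467 CPM with anti-Btla and 350, 339 and 381 CPM with control Ig in EAE cells (0.25 ± 0.06, adjusted p = 0.00548) and rose by 0.20 ± 0.04 in naive cells (adjusted p = 0.00188). The EAE call of Lyn was lost without the replicate number as a block (adjusted p = 0.0901). Btk had 261, 258 and 290 CPM with anti-Btla and 203.3, 207 and 227 CPM with control Ig in EAE cells (0.26 ± 0.05, adjusted p = 0.000923), and 281, 299 and 285 against 218, 220 and 226 CPM in naive cells (0.29 ± 0.04, adjusted p = 0.000121). In the arms with IFNb both kinases rose again, Lyn by 0.29 and 0.27 and Btk by 0.33 and 0.33 on the log2 scale in EAE and naive cells. The EAE change of Btk without IFNb was 0.15 (adjusted p = 0.0729) with transcript lengths as an offset.

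Pik3cd did not pass on activation and rose with anti-Btla. It had 183 to 213 CPM with anti-Btla and 139, 136 and 152 CPM with control Ig in EAE cells (0.40 ± 0.09, adjusted p = 0.00504), and 229, 197 and 206 CPM against 170, 165 and 156 CPM in naive cells (0.28 ± 0.07, adjusted p = 0.00891). Every anti-Btla library of Pik3cd lay above every unstimulated library of its state. With IFNb it rose by 0.29 ± 0.07 in naive cells (adjusted p = 0.00816, and adjusted p = 0.0515 without the anti-Btla library numbered 1) and had 0.19 ± 0.09 in EAE cells (adjusted p = 0.135). Blnk and Plcg2 did not pass in any of the 4 comparisons, with log2 changes of 0.04 to 0.16 for Blnk and 0.00 to 0.19 for Plcg2. The Plcg2 value in naive cells without IFNb was near the threshold (0.14 ± 0.05, adjusted p = 0.0534) and passed with DESeq2 (adjusted p = 0.0212).

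IFNb added to control Ig beads was compared with control Ig beads alone. By edgeR 0 of 9 members passed in EAE cells and 0 of 9 in naive cells, with 0 at an unadjusted p under 0.05 and 0 by DESeq2 in both, where 0.0% of all genes were called. The log2 changes ran from -0.10 to 0.08 in EAE cells and from -0.08 to 0.06 in naive cells, and the 95% intervals of Syk were -0.09 to 0.15 and -0.09 to 0.10.

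EAE was then compared with naive B cells within arms. In control Ig cells 0 of 9 members passed by edgeR (0 by DESeq2, 1 at an unadjusted p under 0.05), where 0.0188% of all genes were called. In unstimulated cells 0 of 9 passed (0 by DESeq2, 1 at an unadjusted p under 0.05), where 0.0492% of all genes were called. Syk showed the largest log2 difference, at 270, 293 and 328 CPM in EAE cells and 377, 409 and 361 CPM in naive cells with control Ig, which did not overlap (-0.31 ± 0.08, 95% interval -0.47 to -0.16, adjusted p = 0.634). In unstimulated cells Syk was at 545, 637 and 570 CPM in EAE cells and 674, 725 and 633 CPM in naive cells, which overlapped (-0.19 ± 0.09, adjusted p = 0.692). Blnk was at 452, 444 and 406 CPM in EAE cells and 389, 385 and 393 CPM in naive cells there (0.19 ± 0.08, adjusted p = 0.648). None of these differences passed. The effects themselves were also compared between the states. For activation 0 of 9 members differed (0 by DESeq2, 0 at an unadjusted p under 0.05), where 0.0865% of all genes were called, with Cd79a at -0.28 ± 0.16 (-0.59 to 0.04). For anti-Btla 0 of 9 differed (0 by DESeq2, 0 at an unadjusted p under 0.05), where 0.0% were called, with Cd79a at 0.22 ± 0.16 (-0.09 to 0.54).

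Among the other genes of the pathway, 21 were inhibitors of the receptor. In EAE cells 13 of them (61.9%) fell and 0 rose on activation (median log2 change -0.32), where 18.8% of all genes fell, and 11 (52.4%) rose and 0 fell with anti-Btla (0.28), where 13.6% of all genes rose. In naive cells 12 (57.1%) fell and 2 rose on activation (-0.21), where 17.5% of all genes fell, and 9 (42.9%) rose and 2 fell with anti-Btla (0.12), where 13.1% rose. The EAE count on activation was 8 when only the groups compared were fitted. Cd22, a sialic acid-binding receptor that recruits SHP-1, fell by 0.79 on the log2 scale on activation and rose by 0.62 with anti-Btla in EAE cells. Pecam1, which carries the same kind of inhibitory tyrosine motif, had -0.74 and 0.66 there, and Dgka, the kinase that removes diacylglycerol, had -0.77 and 0.69. Cd22 is also 1 of the 10 B cell markers. In naive cells Btla itself fell on activation (-0.70) and rose with anti-Btla (0.57), and the exceptions were Fcgr2b, the inhibitory IgG receptor, and Ptpn11, the phosphatase SHP-2, which rose on activation (0.23 and 0.24) and fell with anti-Btla (-0.21 and -0.22).

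The 23 coreceptor and adaptor genes were split. On activation 7 (30.4%) fell and 4 (17.4%) rose in EAE cells, where 18.8% of all genes fell and 3576 of 17007 rose, and 10 (43.5%) fell and 5 (21.7%) rose in naive cells, where 17.5% fell and 22.7% rose (medians -0.09 and -0.11). The complement receptor Cr2 fell most (-1.55 in EAE and -1.21 in naive cells), and the exchange factor Vav3 rose most (1.42 and 1.37). With anti-Btla 4 (17.4%) rose and 3 (13.04%) fell in EAE cells, against 13.6% and 16.5% of all genes, and 5 (21.7%) rose and 4 (17.4%) fell in naive cells, against 13.1% and 19.7% (medians 0.04 and 0.02). The EAE shares lie near those of all genes, and the naive count of 9 was 5 with transcript lengths as an offset and 5 when only the groups compared were fitted. The Btk relative Tec rose (0.65 and 0.71), as did the scaffold Bank1 (0.41 and 0.32), and the tetraspanin Cd81 fell (-0.45 and -0.48).

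Of the 26 genes of the calcium, protein kinase C, Ras and NF-kB relays, 11 (42.3%) fell and 3 (11.5%) rose on activation in EAE cells, where 18.8% of all genes fell and 3576 of 17007 rose, and 14 (53.8%) fell and 4 (15.4%) rose in naive cells, where 17.5% fell and 22.7% rose (medians -0.14 and -0.20). The inositol trisphosphate receptor Itpr3 (-1.08 in EAE cells) and the Ras activator Rasgrp1 (-0.65 in EAE and -0.69 in naive cells), which act directly after phospholipase C, were among those that fell, and the kinase Mapk3 and the GTPase Nras were among those that rose. With anti-Btla 9 (34.6%) rose and 4 (15.4%) fell in EAE cells, against 13.6% and 16.5% of all genes, and 10 (38.5%) rose and 5 (19.2%) fell in naive cells, against 13.1% and 19.7% (medians 0.06 and 0.03), so that the shares that fell lie near those of all genes. Itpr2 (0.60 and 0.51) and the NF-kB kinase Ikbkb (0.49 and 0.36) rose, and Nras fell (-0.38 and -0.36). With IFNb, the anti-Btla counts of EAE and naive cells were 11 and 10 higher with 1 and 2 lower for the inhibitors, 7 and 7 higher with 3 and 4 lower for the coreceptor genes, and 10 and 12 higher with 3 and 3 lower for the relays. Of these, the 10 coreceptor genes called in EAE cells were 6 with no replicate block and 6 with the length offset, the 11 in naive cells were 6 with that offset, and the 13 relay genes called in EAE cells were 7 with no replicate block.

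The T cells served as the contrast. In unstimulated EAE cells all 8 members that could be tested in T cells differed between B and T cells. Of these 1 was lower and the others were higher in B cells, where 54.0% of all genes differed in either direction. In unstimulated naive cells the same 8 differed in the same directions, where 63.6% of all genes did. Blk is not counted in either state, since it passed the filter on low counts in these comparisons only through B cells. It was at 0.242 to 1.07 CPM in EAE and 0.279 to 0.519 CPM in naive unstimulated T cells. B and T cell libraries were counted against transcript sets of 116546 and 116945 transcripts, so the cell type and the table set cannot be told apart in these differences, although the transcripts of all 9 members were the same in both. Pik3cd was the member lower in B cells, with 61.0, 76.0 and 65.1 TPM in EAE B cells and 152, 149 and 134 TPM in EAE T cells (log2 difference -1.25 ± 0.11, adjusted p = 1.43e-05). In naive cells it had 72.4, 84.9 and 74.6 TPM in B cells and 147, 122 and 142 TPM in T cells (-1.24 ± 0.07, adjusted p = 5.60e-08). The cell types did not overlap in either state.

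**Figure D3:**
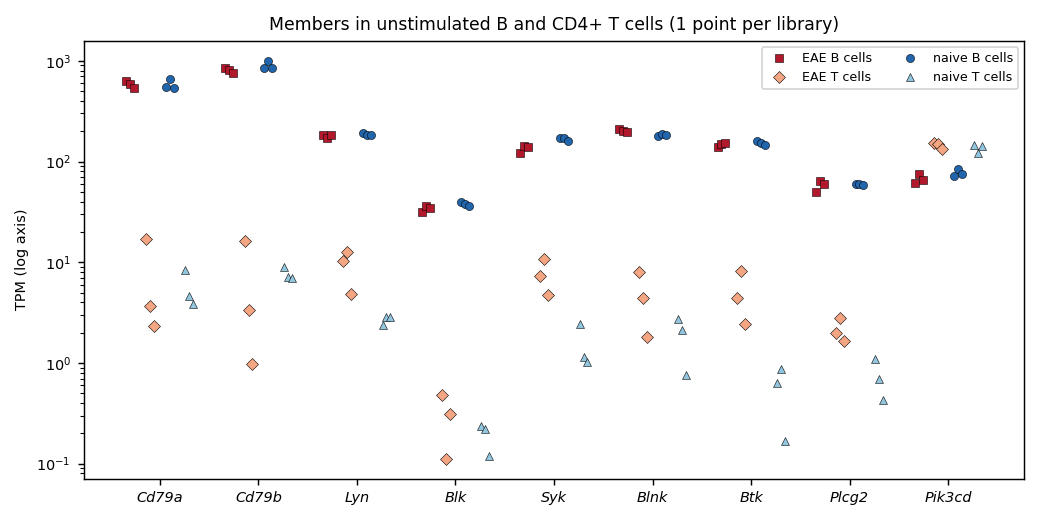
TPM (vertical log axis) of the 9 members in unstimulated cells, 1 point per library (dark red squares, EAE B; light red diamonds, EAE T; dark blue circles, naive B; light blue triangles, naive T). All members but Pik3cd lie at 31.6 TPM or more in B cells and 17.02 TPM or less in T cells, and Pik3cd lies at 61.0 to 84.9 TPM in B cells and 122 to 152 TPM in T cells.

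The other 8 members were low in T cells. In naive T cells the log2 difference of B over T ranged from 6.06 ± 0.14 for Lyn to 7.94 ± 0.23 for Btk. In EAE T cells it ranged from 3.85 ± 0.22 for Syk to 6.90 ± 0.77 for Cd79b. Syk had 7.23, 10.7 and 4.76 TPM in EAE T cells and 2.43, 1.14 and 1.03 TPM in naive T cells, and Lyn had 10.3, 12.7 and 4.87 TPM in EAE T cells and 2.40, 2.87 and 2.87 TPM in naive T cells, without overlap for either. The myeloid markers summed to 230, 611 and 268 CPM in these EAE T cell libraries and to 45.0, 24.3 and 34.9 CPM in the naive ones, and the library numbered 2 was highest in the EAE cells for the markers, Syk and Lyn alike. Their part in these levels was not tested. Cd79a and Cd79b followed another library: the EAE T cell library numbered 1 had 17.02 and 16.1 TPM of them, against 2.32 to 3.66 and 0.974 to 3.36 TPM in the other two, and also the most B cell marker signal (252 CPM, against 124 and 87.2 CPM).

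In T cells, where all members but Pik3cd were at low level, members also fell with anti-CD3 and control Ig relative to unstimulated cells. In EAE T cells 7 of the 8 members tested fell and 0 rose, where 31.3% of 14572 genes fell (Blk did not pass the filter on low counts). In naive T cells 3 of 9 fell and 0 rose, where 22.9% of 15175 genes fell. Pik3cd had 278, 301 and 294 CPM with anti-CD3 and control Ig and 339, 318 and 366 CPM unstimulated in EAE T cells (-0.18 ± 0.07, adjusted p = 0.0257), and 247, 271 and 301 against 395, 370 and 398 CPM in naive T cells (-0.44 ± 0.05, adjusted p = 7.75e-07). The groups of Pik3cd did not overlap in either state, but its EAE call was lost in 8 alternatives, among them those without any of the 3 anti-CD3 libraries (adjusted p = 0.156 to 0.499), and that of Plcg2 (-0.60 ± 0.21, adjusted p = 0.0221) was also lost in 8. The myeloid markers summed to 46.3 to 132 CPM with anti-CD3 and 230 to 611 CPM unstimulated in EAE T cells, and their part in the fall of Syk (-1.39 ± 0.15) and Lyn (-1.14 ± 0.25) was not tested. Cd8a and Cd8b1 summed to 597 to 752 CPM with anti-CD3 and control Ig and 926 to 1096 CPM unstimulated in naive T cells, without overlap. Their part in the naive fall of Pik3cd was not tested. Anti-Btla called 0 members in T cells of either state by edgeR and 0 by DESeq2, with 1 at an unadjusted p under 0.05 in EAE and 0 in naive T cells, where 0.0686% and 0.0% of all genes were called.

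The activation effects of B and T cells were compared directly. In EAE cells 3 of the 8 members that could be tested in T cells differed (Blnk, Cd79a and Cd79b), all with a higher value in B cells, where 9.98% of 17603 genes differed in that direction. Blk is not counted, since it passed the filter on low counts only through B cells. In naive cells 2 of 9 (Cd79b and Pik3cd) differed in that direction, where 9.74% of 17047 genes did. Pik3cd changed by 0.09 in naive B cells and -0.44 in naive T cells, a difference of 0.53 ± 0.10 (adjusted p = 0.00214, and adjusted p = 0.11 with transcript lengths as an offset). The CD8 genes also fell between these naive T cell arms, as given above, and their part in this difference was not tested. Blnk changed by -0.14 in EAE B cells and -1.99 in EAE T cells (difference in the joint fit 1.69 ± 0.19, adjusted p = 7.98e-05). In EAE T cells Blnk was low, at 18.4, 9.67 and 6.02 CPM unstimulated and 5.40, 1.88 and 1.51 CPM activated. The library numbered 1 was highest in both arms, and its part in this difference may include B cell signal, which was not tested. The differences of Cd79a (1.69 ± 0.35) and Cd79b (1.78 ± 0.50) in EAE cells rest on the T cell library numbered 1 described above and were 0.90 (adjusted p = 0.0992) and 0.59 (adjusted p = 0.478) without it in the unstimulated arm. The count of 3 was then 1. The difference of Cd79b in naive cells (0.65 ± 0.18, adjusted p = 0.0192) was 0.40 without either T cell library numbered 3 (adjusted p = 0.209 and 0.212).

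Several members are made as more than 1 transcript, and Salmon divides reads between them, so that the shares below are estimates. Over the 30 B cell libraries Lyn-201 made up 68.1% ± 4.31 of the TPM of Lyn (SD, range 59.5 to 77.4%) and Lyn-202 16.1% ± 3.59 (8.16 to 25.5%). Lyn-201 thus exceeded Lyn-202 in every library. The lowest shares of Lyn-202 were 8.16 and 9.32%, in EAE cells with anti-Btla, but the third library of that group had 18.2%, within the range of the other groups.

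Cd79b was split between Cd79b-202 (67.4% ± 2.15, range 61.2 to 71.0%) and Cd79b-201 (32.6%), which starts further upstream and has a longer coding sequence (864 against 684 bases). Syk was divided mainly between Syk-201 (40.3% ± 4.89) and Syk-203 (30.5% ± 3.84), which begin inside the downstream window shown above and just before the upstream one and both have 1887 coding bases. Syk-201 had the larger share in every library but a pair, those numbered 3 of EAE cells with anti-Btla (31.5% against 34.6% for Syk-203) and of naive cells with anti-Btla and IFNb (32.7% against 33.6%). Blnk-202 (63.4% ± 2.29) exceeded Blnk-201 (20.4% ± 3.06), and Pik3cd-204, with the full coding sequence of 3141 bases, made up 35.7% of the TPM of Pik3cd but 73.0% of its counts. Cd79a and Plcg2 were counted as 1 transcript each.

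**Figure D4:**
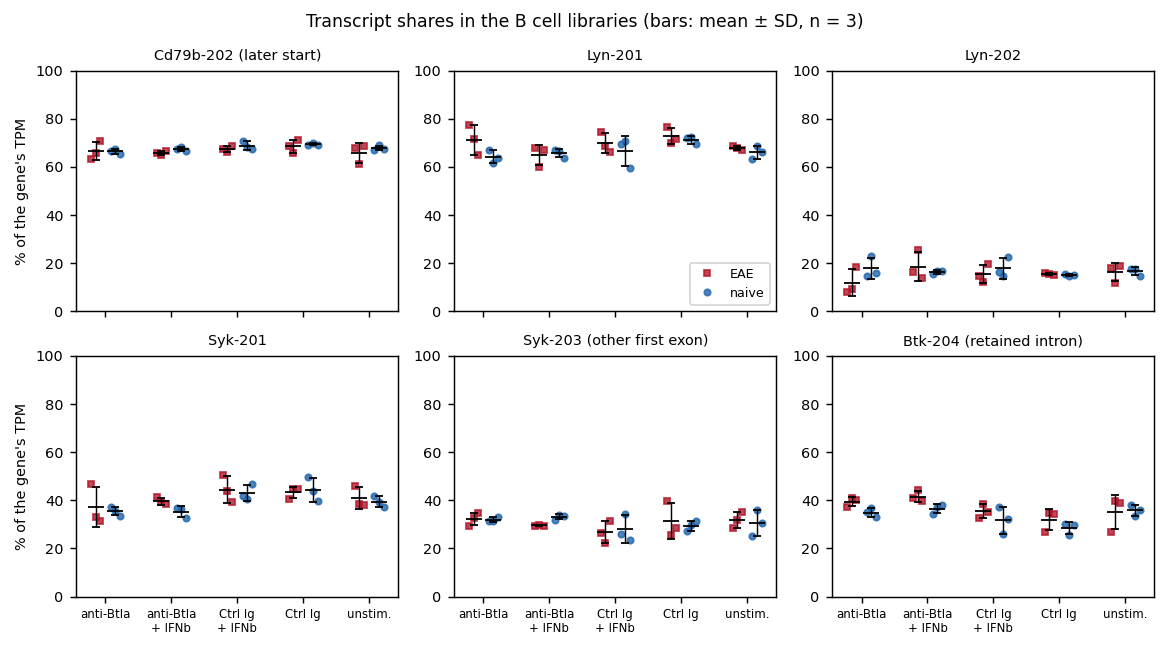
Share of the gene's TPM (vertical axes, percent) taken by 6 transcripts in the B cell libraries by arm (red squares, EAE; blue circles, naive; bars, mean ± SD of 3 libraries). Cd79b-202 stays at 61.2 to 71.0% in all arms, and Btk-204 is at 25.5 to 37.1% in the control Ig arms of naive cells.

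Transcripts with a retained intron, which carry no annotated coding sequence, took 35.1% ± 4.78 of the TPM of Btk (Btk-204, 35.8% of its counts), 34.9% ± 4.47 of Blk (Blk-202, 8.43% of its counts), 16.2% ± 3.10 of Blnk (Blnk-203, 35.9% of its counts), and 13.4% ± 1.79 and 10.1% ± 1.59 of Syk (Syk-204 and Syk-205, 5.87% and 6.87% of its counts). These shares were compared between arms after their values had been seen. How often such shares fail to overlap over the transcripts of all genes was not computed, so the counts that follow only describe these genes. Activation and anti-Btla share the control Ig libraries, so their comparisons are not separate. Of the 24 comparisons (activation, anti-Btla and anti-Btla with IFNb in both states), 14 overlapped and 10 did not, 5 of 6 for Blnk, 4 of 6 for Btk, 1 of 6 for Blk and 0 of 6 for Syk, and none could pass at 3 against 3. For Btk, as the first example, they were 37.4, 40.8 and 40.2% with anti-Btla and 26.8, 34.6 and 34.2% with control Ig in EAE cells, and 35.1, 36.7 and 32.9% against 30.2, 25.5 and 29.7% in naive cells. The groups of Btk did not overlap in either state (exact two-sided permutation p = 0.1 each, the smallest that 3 against 3 allows, and adjusted p = 0.24 over 24 such tests). For Blnk they were 12.7, 17.9 and 20.1% with anti-Btla and 8.99, 14.8 and 13.5% with control Ig in EAE cells, which overlapped, and 17.1, 19.9 and 19.7% against 12.1, 13.2 and 16.01% in naive cells, which did not. In naive cells the shares of both genes were also lower with control Ig than in unstimulated cells, with means of 28.5% against 35.9% for Btk and 13.7% against 19.4% for Blnk, without overlap (exact permutation p = 0.1 each), while Btk overlapped on activation in EAE cells (31.9% against 35.1%) and with anti-Btla and IFNb in naive cells (36.5% against 31.7%). Blk with anti-Btla in naive cells had 34.9% against 35.4% and overlapped.

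The balance of the receptor chains was followed as the ratio of Cd79a to Cd79b TPM. In unstimulated cells it was 0.754, 0.724 and 0.711 in EAE cells and 0.644, 0.655 and 0.636 in naive cells, without overlap. In control Ig cells it was 0.650, 0.581 and 0.603 in EAE cells and 0.614, 0.643 and 0.576 in naive cells. The EAE ratio was thus lower in every control Ig library than in any unstimulated one, while the naive groups overlapped. The ratio was not tested. A single library stood apart, that of naive cells with anti-Btla and IFNb numbered 1, at 0.397, against 0.538 to 0.754 in the other 29. Its Cd79b was the highest of all B cell libraries (1021 CPM) and its Cd79a was 469 CPM, against 566 and 597 CPM in the same group.

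**Figure D5:**
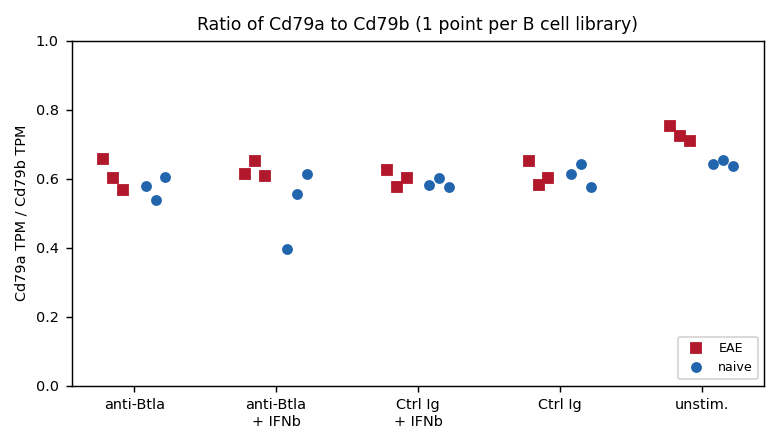
Ratio of Cd79a to Cd79b TPM (vertical axis, from 0) in each of the 30 B cell libraries by arm (red squares, EAE; blue circles, naive). Unstimulated EAE cells lie highest at 0.711 to 0.754, and the library at 0.397 is that of naive cells with anti-Btla and IFNb numbered 1.

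Over the 30 B cell libraries all 36 pairs of members were positively correlated in log2 CPM (Pearson r 0.36 to 0.93, median 0.695), and after removal of the group means the values were 0.04 to 0.88 (median 0.365). The libraries share arm, depth and number, so these are descriptions. Among the 8599 genes at a mean of 10 CPM or more that are not members, the pattern of Syk was closest to those of Rnf169 (r = 0.98) and Susd1 (0.979), that of Cd79a to Trp53i11 (0.944) and Mef2d (0.937), and that of Cd79b to Arhgap45 (0.965) and Smap2 (0.958). Lyn was closest to Cnr2 (0.961), the cannabinoid receptor of B cells, and to Rasgrp1 (0.96), Blk to Traf3ip3 (0.955) and Acox3 (0.954), and Btk to Tcp11l2 (0.977) and Zmynd11 (0.972). Plcg2 was closest to Tln1 (0.962) and Ttc7 (0.923), Pik3cd to Parp1 (0.908) and Lgmn (0.874), and Blnk, which varied least, to P2rx4 (0.87) and Tom1l2 (0.865).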

How the data were processed

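Total RNA of 60 libraries was sequenced by the authors, who quantified transcripts with Salmon on GRCm38 (version and strand setting not given in the sources used here). The deposited tables hold estimated counts and TPM per transcript, and 67 tables cover the 60 libraries because 7 libraries were sequenced in 2 runs, which were summed. Estimated counts were summed to genes (IDs matched without their version to GENCODE M21) and rounded to whole numbers, and 0.158 to 0.677% of counts matched no gene and were left out. CPM is the gene's count scaled to a library total of 1000000.

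Differences were tested with edgeR 4.0.16 in R 4.3.3 (quasi-likelihood F-test, TMM, filterByExpr with a minimum count of 10, Benjamini-Hochberg over all genes tested, threshold 0.05). The 15 libraries of a cell type and state were fitted together with the replicate number as a block, while EAE against naive and B against T cells used the 6 libraries compared with no block. SE is the log2 change divided by the root of F, and 95% intervals are 1.96 SE. The intervals make no allowance for the few degrees of freedom, so they are narrower than the F-test implies, most of all in fits of 6 libraries. The test was checked on simulated counts. Alternatives were DESeq2 1.42.0, library size alone, no filter, the block left out or added, transcript lengths as an offset, only the groups compared, and each library left out. The 9 members were always named. From each pathway list up to 3 called genes per direction with the smallest p could be named, with Btla, Ighm and Ighd, and for each member the 2 genes closest in Pearson r. The members and lists were chosen with earlier results of these data known. Library totals of 6681486 to 61964221 counts make counting error smaller than the usual replicate spread of the members in B cells, but not in every group. For example, the replicates of Blk in naive B cells with anti-Btla and IFNb (SD 0.70 at a mean of 56.9 CPM) lay closer together than counting error. For members near 0 in T cells counting error is not small.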

Additional observations from a re-analysis of the deposited data

Results flagged for a closer look

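The effect of activation differed between B and T cells for 3 members in EAE and 2 in naive cells, by the test of the difference itself (edgeR, log2 difference B minus T). In EAE cells these were Blnk (1.69 ± 0.19, adjusted p = 7.98e-05), Cd79a (1.69 ± 0.35, adjusted p = 0.00395) and Cd79b (1.78 ± 0.50, adjusted p = 0.0207). Blk (fitted value 6.34 ± 1.40, adjusted p = 0.00804) is not counted with them, since it passed the filter on low counts only through B cells and was at 0 in all 3 activated EAE T cell libraries, so that its fitted value is no measure of a difference. Without the unstimulated T cell library numbered 1, Cd79a was 0.90 and Cd79b 0.59, and neither passed. In naive cells they were Pik3cd (0.53 ± 0.10, adjusted p = 0.00214) and Cd79b (0.65 ± 0.18, adjusted p = 0.0192). The CD8 genes also fell between these naive T cell arms, and their part was not tested.

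With anti-Btla, Btk was higher in 3 of 3 same-numbered EAE B cell pairs (log2 change 0.26, adjusted p = 0.000923) and lower in 3 of 3 EAE T cell pairs (-0.33 ± 0.24, adjusted p = 0.722, edgeR). In naive T cells Btk was higher with anti-Btla in every same-numbered pair (1.926, 2.027 and 0.8796 CPM against 1.781, 1.365 and 0.4947 CPM). In EAE T cells with IFNb the groups overlapped (4.368 to 6.752 CPM with anti-Btla and 6.013 to 6.854 CPM with control Ig). The T cell direction was thus not shared by these sets, and the difference between the cell types was not tested.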

How the results depend on the processing

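Of the 38 called member changes in the B cell comparisons of activation and anti-Btla, 32 were called in every alternative, and 444 of 456 refits kept the call. No called change reversed, and 108 sign changes occurred where neither fit called. The difference of activation effects between B and T cells called 4 members in EAE cells (with Blk, not counted above), 2 with no replicate block, and 1 to 6 when a library was left out. In naive cells it called 2 members, 0 with the length offset, 4 with no filter, 1 with no replicate block, and 1 to 2 when a library was left out. The cause was not tested. Same-numbered libraries correlated above 0.1 in 27 of 30 EAE B cell pairs (median r 0.233, other pairs -0.154) and 19 of 30 naive B cell pairs (0.118, other pairs -0.058), so that libraries of a number tended to deviate together but not in every pair, and the labels do not say what a number marks. Without the replicate block the genes called were 4403 instead of 6765 for activation, 2775 instead of 5124 for anti-Btla and 2794 instead of 5270 for anti-Btla with IFNb in EAE B cells. Library size alone gave 2526 higher and 4949 lower genes for activation in EAE B cells (3576 and 3189 with TMM) and 2837 and 4297 in naive B cells (3779 and 2905). For anti-Btla it gave 3269 and 2141 in EAE (2315 and 2809) and 3325 and 2471 in naive B cells (2173 and 3283), and with IFNb 3092 and 2412 (2309 and 2961) and 2516 and 2450 (1983 and 2917). For anti-Btla in EAE T cells it gave 3 and 3 (7 and 3). All genes called for EAE against naive were 8 in unstimulated cells (2 to 209 over alternatives) and 3 in control Ig cells (1 to 66). Genes called were 0 for IFNb (up to 2 in EAE and 13 in naive cells), 10 and 0 for anti-Btla in EAE and naive T cells (0 to 291 and up to 254), 15 and 0 for the EAE against naive differences of activation and anti-Btla (0 to 34 and up to 8), and 3746 for the naive B against T difference (2211 with the length offset). Taken from estimated counts in place of TPM, 18 mean transcript shares moved by more than their SD over libraries and 5 did not. Members near 0 in T cells are limited by depth.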
